A study of Mus musculus with 24 samples.

Results

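The response of mouse macrophages to interleukin 4 (IL-4) was followed from 1 h to 18 h of exposure, and the quantity of interest was the change in that response: the IL-4 effect at 18 h minus the IL-4 effect at 1 h. Members were the 12 libraries, of 24 in the series, that hold IL-4 treated and unstimulated cells at both times. Bone marrow cells of wild-type C57BL/6 mice had been cultured 7 days with CSF-1 at 20 ng/mL, which macrophages need to grow, and all 4 groups carried CSF-1. Of these groups of 3 libraries, one was unstimulated at 1 h, one received 20 ng/mL IL-4 for 1 h, one was unstimulated at 18 h and one received 20 ng/mL IL-4 for 18 h. RNA was sequenced from a stranded mRNA kit in bulk, so fewer cells of a type and less RNA per cell cannot be told apart. Whether the 3 libraries of a group are separate mice or cultures is not given in the sources used here, and the p-values then cover only the spread among libraries, possibly a technical one.

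IL-4 binds a receptor made of IL-4R alpha with the common gamma chain or IL-13R alpha 1, which activates JAK kinases and through them the transcription factor STAT6. STAT6 binds DNA as a dimer at palindromic sites and switches on a first wave of genes, among them inhibitors that dampen the receptor and further transcription factors that act on later genes. In macrophages the later genes include arginase, lectin receptors, chitinase-like proteins and cell fusion genes, which together are used as markers of alternative activation.

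Total counts ran from 4902540 to 8122945 per library, and 15903 to 19108 genes had a read. Of 43629 gene identifiers, 12292 passed the count filter and were tested. Macrophage markers were high in all 12 libraries, Csf1r from 1780 to 2237 CPM (counts scaled to a common library total), but their summed level over 9 genes was 11903 to 12312 CPM in the IL-4 18 h libraries against 16816 to 21129 CPM in the other 3 groups, and 5 of the 9 were lower in the change of the response. Lyz2 made up most of that gap, at 5501 to 5864 CPM against 10331 to 12740 CPM. Neutrophil markers summed to 141 to 238 CPM over all libraries with none of 6 tested members called. The genes Cd3e, Cd3g, Hbb-bt, Lum, Calcr and Mcpt4 were at 0 in every library. Other members of these lists were not: Il7r, listed for T and NK cells, stood at 202 to 333 CPM. Pf4, listed for erythroid cells and megakaryocytes, stood at 86.1 to 169 CPM and was lower in the change of the response. Mast cell and basophil markers summed to 1.35 to 6.42 CPM, and their 1 tested member was higher in that change. Eosinophil markers summed to 30.4 to 61.7 CPM. Monocyte markers summed to 124 to 868 CPM, with Chil3 among them at 31.9 to 768 CPM. Whether such cells were present was not tested. IL-4 18 h replicate 2 stood apart from its group, since chi-square divided by genes was 7.41 and 4.56 in its comparisons within the group and 3.26 between replicates 1 and 3. Unstimulated 18 h replicate 3 and IL-4 18 h replicate 3 had 19108 and 17808 genes with a read, more than the 15903 to 16775 of the other 10.

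The IL-4 effect is the log2 fold change against unstimulated cells of the same time, given ± an approximate standard error. It differed between 18 h and 1 h for 2827 genes, which is 23.0% of those tested. Of all tested genes, 1326 (10.8%) had a higher log2 effect at 18 h and 1501 (12.2%) a lower one. All tests were edgeR quasi-likelihood tests with Benjamini-Hochberg adjustment over the 12292 genes. Calls needed an adjusted p under 0.05. Scaling by library size alone, in place of TMM, called 998 higher and 1816 lower, which moved the share of calls that were higher from 46.9% to 35.5%, with a shift of -0.07 in the median log2 change of all genes. The effect itself was called for 844 genes at 1 h (6.87%; 428 or 3.48% higher and 416 or 3.38% lower) and for 5142 at 18 h (41.8%; 2560 or 20.8% higher and 2582 or 21.0% lower). Without IL-4 18 h replicate 2, the change of the response was called for 1289 genes higher and 1326 lower, and without both replicates 3 of 18 h for 1084 and 1067.

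Each gene was then placed by its calls at the 2 times and in the change between them. Early transient genes, called at 1 h, not at 18 h and with a called change against the early effect, numbered 60 higher and 106 lower with IL-4. Faded genes (37 higher and 19 lower) were called at both times in the same direction but with a smaller late effect, and grew genes (78 and 42) with a larger one. Sustained genes (157 and 122) were called at both times with no called change, and for 234 of these 279 the 95% interval of the change lay within 1 log2 unit of 0. Late genes, called at 18 h and not at 1 h with a called change, were the largest of these classes with 1004 higher and 1287 lower. Another 116 genes turned: they were called at both times with opposite signs. For 2280 genes called at 18 h alone and 107 called at 1 h alone the change itself was not called, so whether their effect differed with time was not resolved; for 1850 of the 2280 the interval lay within 1 log2 unit.

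**Figure D1:**
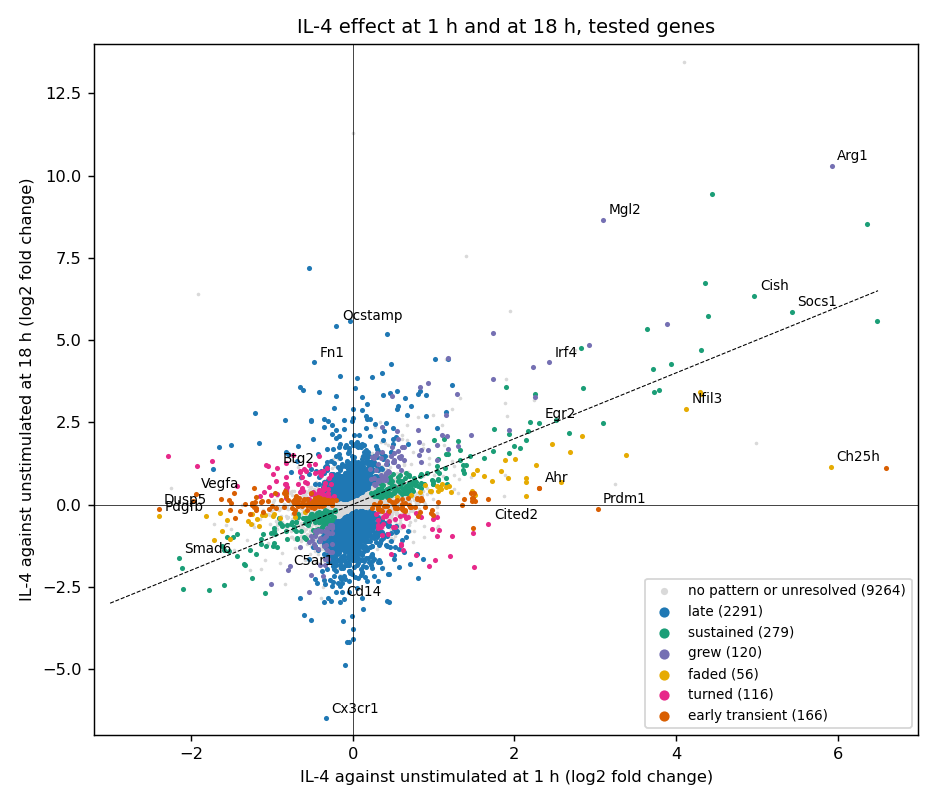
Each point is a tested gene, with its IL-4 effect (log2 fold change against unstimulated cells) at 1 h on the x axis and at 18 h on the y axis, coloured by time pattern; the dashed line marks equal effects. Early transient genes lie along the horizontal axis, the late genes along the vertical axis, and the 279 sustained genes near the dashed line. The early transient point farthest right is a predicted gene, which is counted and not named.

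**Figure D2:**
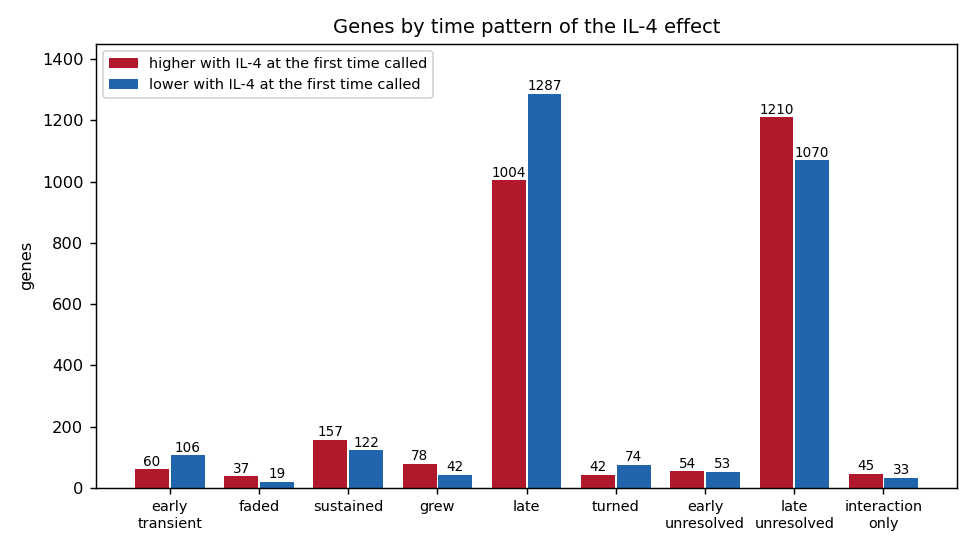
Bars count the genes of each time pattern (y axis, genes), in red where the effect was higher with IL-4 at the first time it was called and in blue where it was lower; for genes called in the change alone the colour is the sign of the change. Late genes (1004 and 1287) outnumber early transient genes (60 and 106).

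Which arm moved was read from the change between 1 h and 18 h within each treatment. It was called for 5352 genes in IL-4 libraries (43.5%; 22.0% higher and 21.5% lower at 18 h) and for 1585 in unstimulated libraries (12.9%; 5.39% higher and 7.51% lower). The latter count ranged from 828 to 1971 with 1 library left out: 828 without unstimulated 18 h replicate 1, 871 without unstimulated 1 h replicate 3, 924 without unstimulated 18 h replicate 2 and 1024 without unstimulated 1 h replicate 1. Of the 1326 genes with a higher late response, 954 rose with time in the IL-4 libraries without a called fall in the unstimulated ones, 162 fell in the unstimulated libraries without a called rise in the IL-4 ones, 149 did both and 61 did neither. For 42 of the 1004 late higher genes the unstimulated libraries rose. Of the 1501 with a lower late response the counts with the directions exchanged were 1208, 106, 94 and 93, and for 89 of the 1287 late lower genes the unstimulated libraries fell. Of the early transient genes that IL-4 had lowered, for 67 of 106 the unstimulated libraries fell between 1 h and 18 h, while for 53 the IL-4 libraries rose. For early transient genes that IL-4 had raised, the IL-4 libraries fell for 53 of 60 and the unstimulated libraries rose for 6. The difference between those shares was not tested. The classes and these counts come from the same libraries, and the change of the response is the IL-4 time change less the unstimulated one. A difference between the arms is therefore built into each class with a called change, and the counts only describe which arm was called.

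**Figure D3:**
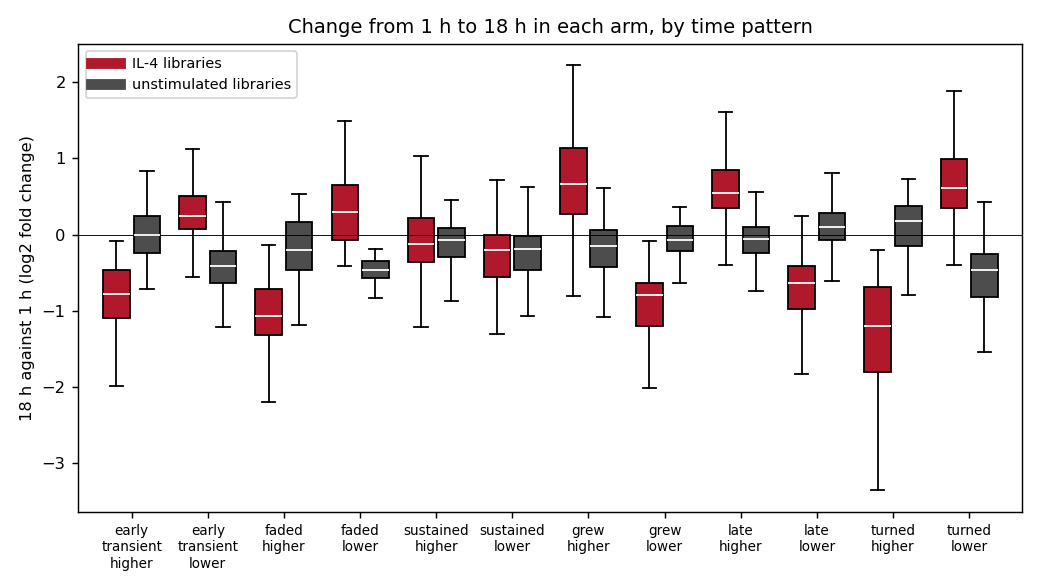
Boxes show the log2 change from 1 h to 18 h (y axis) in IL-4 libraries (red) and unstimulated libraries (grey) for the genes of each time pattern; the white line is the median, the box runs from the lower to the upper quartile of the genes, whiskers reach 1.5 box lengths and points beyond are not drawn. In the early transient lower class the median change was 0.24 in IL-4 libraries and -0.41 in unstimulated libraries, and in the late lower class -0.64 and 0.10.

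The DNA sequence that STAT6 prefers, TTCNNNNGAA, reads the same on both strands and was looked up in the promoter windows of RefSeq, which run from 250 bases before to 50 after each start. It was present in 6.95% of all 32851 windows and for 603 of 9080 tested genes with a window (6.64%). Among sustained higher genes 16 of 116 held it (13.8%), among grew higher genes 7 of 59 (11.9%), among late higher genes 43 of 759 (5.67%) and among early transient higher genes 2 of 44 (4.55%). The shorter spacing TTCNNNGAA, which other STAT proteins prefer, was in 8.30% of all windows, and for 9 of 116 sustained higher genes (7.76%) and 2 of 59 grew higher genes (3.39%). Among genes that turned from higher to lower 7 of 36 held it (19.4%), and among early transient higher genes 4 of 44 (9.09%). A match is a description of the letters and not of binding, and the differences in share were not tested. Stretches before the start are shown for 5 genes described below, with the match in capitals: Plekhf1 and Pdcd1lg2 are sustained, Tmem26 grew, Itgax is late and Retnla was read at 18 h almost alone. All 5 were picked among genes that hold a match, so they do not show how common it is. The sequences are RefSeq's on build GRCm38.p6, written 5′ to 3′ on the gene's strand, from chr7:38228059-38228158 (minus strand) for Plekhf1, chr19:29410792-29410891 (plus strand) for Pdcd1lg2, chr10:68723496-68723745 (plus strand) for Tmem26, chr7:128129378-128129477 (plus strand) for Itgax and chr16:48842419-48842518 (plus strand) for Retnla.
Plekhf1: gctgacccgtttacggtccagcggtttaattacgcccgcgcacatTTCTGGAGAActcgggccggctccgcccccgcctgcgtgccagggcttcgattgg
Pdcd1lg2: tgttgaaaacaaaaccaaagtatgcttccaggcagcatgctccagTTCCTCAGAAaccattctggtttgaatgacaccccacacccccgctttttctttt
Tmem26: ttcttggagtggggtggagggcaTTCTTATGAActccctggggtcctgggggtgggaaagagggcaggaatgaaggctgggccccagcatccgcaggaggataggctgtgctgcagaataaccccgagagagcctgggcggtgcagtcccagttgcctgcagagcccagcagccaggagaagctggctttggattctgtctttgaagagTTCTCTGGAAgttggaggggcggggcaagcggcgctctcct
Itgax: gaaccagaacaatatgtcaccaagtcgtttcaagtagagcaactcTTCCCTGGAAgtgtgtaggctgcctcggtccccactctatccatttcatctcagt
Retnla: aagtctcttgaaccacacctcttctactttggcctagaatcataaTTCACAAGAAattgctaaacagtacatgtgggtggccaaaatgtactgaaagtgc
The match starts 119 bases before the start of Plekhf1, 82 before that of Pdcd1lg2, 127 before that of Itgax and 145 before that of Retnla. Tmem26 holds 2 matches, 227 and 41 bases before its start.

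Of 9 tested members of the list of receptor chains, JAKs and STAT6, none was higher and 1, Il4ra, was lower in the change of the response. Of all tested genes 10.8% were higher and 12.2% lower, so the lower count of this list was near the share of all genes. Il4ra, the IL-4R alpha chain, was at 115, 101 and 114 CPM in unstimulated cells at 1 h, 102, 81.0 and 114 with IL-4 at 1 h, 87.8, 91.9 and 84.5 in unstimulated cells at 18 h and 56.9, 57.2 and 57.3 with IL-4 at 18 h. The groups overlapped at 1 h, and at 18 h all IL-4 libraries lay below all unstimulated ones. Its change of the response was -0.47 ± 0.14 (adjusted p = 0.015), and it missed the threshold without IL-4 1 h replicate 3 (-0.36, adjusted p = 0.051) or without unstimulated 1 h replicate 2 (-0.40, adjusted p = 0.051). Jak2, a kinase of many cytokine receptors, was sustained: its effect was 0.92 ± 0.09 at 1 h and 0.95 ± 0.09 at 18 h, with a change of 0.03 ± 0.13 (adjusted p = 0.91) and a 95% interval from -0.25 to 0.31. Stat6 itself was not called at 1 h (-0.13 ± 0.07) and fell slightly at 18 h (-0.23 ± 0.07, adjusted p = 0.0088), Il13ra1 fell at 18 h (-1.11 ± 0.21, adjusted p = 3.0e-04) and Il2rg, the common gamma chain, rose (0.26 ± 0.09, adjusted p = 0.028), none with a called change. Jak1 was called at neither time (-0.01 ± 0.07 and 0.14 ± 0.07).

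The inhibitors that IL-4 signalling induces, the SOCS and CISH genes, followed different courses. Of 11 tested members 6 rose at 1 h and 6 at 18 h, where 3.48% and 20.8% of all tested genes rose. The change of the response was higher for 2 and lower for 2, against 10.8% and 12.2% of all tested genes. Socs1 (chr16:10782240-10785536 on GRCm38), which encodes an inhibitor of JAK kinases, stood at 5.35, 2.80 and 3.96 CPM in unstimulated cells at 1 h and 184, 173 and 174 with IL-4. At 18 h the unstimulated libraries held 0.956, 1.01 and 0.354 CPM and the IL-4 libraries 51.1, 47.6 and 39.4. IL-4 libraries were above unstimulated ones at both times without overlap, while the mean level was lower at 18 h in both arms. The effect was 5.43 ± 0.14 at 1 h, 5.86 ± 0.23 at 18 h, and the change was 0.43 ± 0.42 (adjusted p = 0.52) with an interval from -0.44 to 1.30.

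Cish, whose product binds cytokine receptors, was sustained as well, at 1.38, 0.329 and 2.09 CPM without and 40.4, 32.7 and 42.5 CPM with IL-4 at 1 h. At 18 h Cish stood at 0.382, 0.338 and 0.354 CPM without and 32.8, 30.9 and 28.6 CPM with IL-4. Its change of 1.38 ± 0.65 (adjusted p = 0.14) passed the threshold without unstimulated 1 h replicate 2 (1.86, adjusted p = 0.023), the lowest library of its group. Socs5, an inhibitor linked to the IL-4 receptor, faded: it rose from 31.2, 29.8 and 30.7 to 93.1, 81.8 and 86.2 CPM at 1 h and stood at 29.8, 35.1 and 38.3 CPM without and 43.0, 41.3 and 41.5 CPM with IL-4 at 18 h, a change of -1.23 ± 0.13 (adjusted p = 5.7e-07). All IL-4 libraries of Socs5 were above the unstimulated ones at both times. Socs2, a regulator of growth hormone and cytokine receptors, grew from 3.89 ± 0.25 at 1 h to 5.50 ± 0.23 at 18 h; its change of 1.61 ± 0.51 (adjusted p = 0.027) missed the threshold without unstimulated 1 h replicate 3 (1.34, adjusted p = 0.12), and likewise without replicate 1 (1.61, adjusted p = 0.053) or replicate 2 (1.52, adjusted p = 0.067) of the unstimulated 18 h group, or both replicates 3 of 18 h (1.72, adjusted p = 0.056). Socs3, an inhibitor of gp130 receptors, rose at 1 h (1.87 ± 0.25), and at 18 h both arms overlapped at low levels, 2.29, 0.676 and 1.24 CPM without and 1.89, 1.53 and 1.56 CPM with IL-4. Its change of -1.60 ± 0.66 (adjusted p = 0.088) missed the threshold here, but was called with the replicate number as a block (-1.58, adjusted p = 0.027), with all 24 libraries in 1 fit (-1.60, adjusted p = 0.046), with no filter on low counts (-1.58, adjusted p = 0.0052) and without unstimulated 1 h replicate 1 (-2.07, adjusted p = 0.021).

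Of 15 tested transcription factors known to respond to IL-4, 8 rose and 2 fell at 1 h (3.48% and 3.38% of all tested genes) and 10 rose and 3 fell at 18 h (20.8% and 21.0%). The 3 of 15 that fell at 18 h are near the share of all genes. The change was higher for 5 and lower for 4 (10.8% and 12.2%). Egr2, a zinc finger factor, was sustained, with 62.7, 58.3 and 67.6 CPM in unstimulated and 285, 298 and 353 CPM in IL-4 libraries at 1 h. At 18 h Egr2 stood at 38.6, 46.3 and 55.4 CPM without and 278, 249.5 and 257 CPM with IL-4. The 6 IL-4 libraries lay above the 6 unstimulated ones, and the effects were 2.31 ± 0.10 and 2.48 ± 0.11. Pparg, a lipid-activated nuclear receptor, was sustained too (0.56 ± 0.09 and 0.84 ± 0.09), with a change of 0.27 ± 0.13 (adjusted p = 0.14) that was called without both replicates 3 of 18 h (0.42, adjusted p = 0.043).

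Irf4, a factor that IL-4 induces in macrophages and lymphocytes, grew. It stood at 11.6, 8.23 and 12.9 CPM without and 55.0, 51.3 and 69.4 CPM with IL-4 at 1 h. At 18 h Irf4 stood at 2.10, 5.41 and 4.43 CPM without and 91.3, 72.0 and 81.8 CPM with IL-4. The groups were apart at both times. Its effect went from 2.43 ± 0.17 to 4.33 ± 0.20, a change of 1.90 ± 0.30 (adjusted p = 7.2e-05), in which the IL-4 libraries rose by 0.48 and the unstimulated libraries fell by 1.42 on the log2 scale. Klf4, a zinc finger factor, likewise went from 1.05 ± 0.09 to 1.81 ± 0.10. Bhlhe40, a repressor of the helix-loop-helix family, was late, at 116, 109 and 122 CPM without and 126, 119 and 148 CPM with IL-4 at 1 h and 28.7, 44.3 and 41.4 CPM without and 242, 225 and 232 CPM with IL-4 at 18 h, with a change of 2.43 ± 0.15 (adjusted p = 5.1e-10). Here too both arms moved apart, since unstimulated libraries fell by 1.59 and IL-4 libraries rose by 0.83. Nfil3, a bZIP factor, and Myc faded, from 4.13 ± 0.14 to 2.91 ± 0.14 and from 1.19 ± 0.08 to 0.57 ± 0.09. Maf and Bcl6 went the other way: Maf was lower at 18 h alone (-1.47 ± 0.10, adjusted p = 1.3e-10), and Bcl6, a repressor, was lower at both times with a smaller late effect (-0.90 ± 0.10 and -0.42 ± 0.09).

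Early transient genes raised by IL-4 were no longer called at 18 h. Prdm1 (chr10:44437177-44528501), which encodes the repressor BLIMP1, stood at 8.57, 8.23 and 7.09 CPM in unstimulated cells at 1 h and 60.8, 61.2 and 75.3 CPM with IL-4. At 18 h the values were 14.9, 14.2 and 13.8 CPM without and 15.7, 10.6 and 13.2 CPM with IL-4, and the groups overlapped. The effect was 3.03 ± 0.14 at 1 h and -0.13 ± 0.15 (adjusted p = 0.52) at 18 h, and the change was -3.16 ± 0.21 (adjusted p = 1.4e-09); unstimulated cells rose by 0.83 over the same time.

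Ahr, the aryl hydrocarbon receptor, rose from 6.89 ± 1.32 to 34.0 ± 3.67 CPM (mean ± SD, n = 3) at 1 h, an effect of 2.31 ± 0.15, against 0.51 ± 0.21 (adjusted p = 0.063) at 18 h. Hnrnpll, a splicing regulator known from lymphocytes, was 1.68 ± 0.07 at 1 h and 0.17 ± 0.08 at 18 h, and Zfp36l1, an RNA-binding protein that promotes mRNA decay, 1.49 ± 0.14 and 0.19 ± 0.13. Fam72a, which promotes error-prone repair in B cells, went from 1.52 ± 0.21 to 0.12 ± 0.21. For these 4 genes all IL-4 libraries were above all unstimulated ones at 1 h, and the change was called with adjusted p = 4.9e-05, 3.3e-09, 3.9e-05 and 0.0023. The count of 60 such genes was 36 without unstimulated 1 h replicate 2, 38 without IL-4 1 h replicate 1 and 36 with DESeq2.

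Among early transient genes lowered by IL-4, Dusp5, a nuclear phosphatase of ERK, stood at 73.6, 62.9 and 92.0 CPM in unstimulated cells and 14.2, 11.1 and 17.8 CPM with IL-4 at 1 h. At 18 h Dusp5 stood at 18.7, 17.4 and 26.0 CPM without and 21.8, 16.0 and 18.4 CPM with IL-4. The groups were apart at 1 h and overlapped at 18 h. Unstimulated libraries fell by 1.87 (adjusted p = 1.2e-07) while the change in IL-4 libraries was not called (0.38 ± 0.19, adjusted p = 0.12). Vegfa, the vascular growth factor, went from 173, 137 and 214 to 41.0, 32.8 and 62.1 CPM at 1 h, and at 18 h was 57.4, 67.6 and 84.5 without and 100.2, 74.4 and 89.2 CPM with IL-4. Here unstimulated libraries fell by 1.31 and IL-4 libraries rose by 0.96.

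In Otud1 and Gdf15 the IL-4 libraries rose with time and the unstimulated libraries had no called change. Otud1, a deubiquitinase, was 33.2, 35.5 and 36.7 CPM without and 11.1, 13.4 and 12.4 CPM with IL-4 at 1 h and 34.0, 40.9 and 42.3 CPM without and 34.9, 35.2 and 33.7 CPM with IL-4 at 18 h, and the change over time had an adjusted p of 1.8e-09 in the IL-4 libraries and 0.32 in the unstimulated ones. Gdf15, a stress-induced cytokine of the TGF-beta family, had a 1 h effect of -1.63 ± 0.22 and an 18 h effect of 0.18 ± 0.18. Tgif1, a repressor of TGF-beta targets, had -1.53 ± 0.10 and 0.13 ± 0.09, and Pfkfb3, which drives glycolysis through a sugar bisphosphate, -1.12 ± 0.10 and 0.12 ± 0.10. For Tgif1 and Pfkfb3 both arms moved, the unstimulated libraries falling by 0.35 and 0.70. Gdf15, Tgif1 and Pfkfb3 were lower in every IL-4 library than in every unstimulated library at 1 h, and none was called at 18 h.

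Faded genes kept a smaller effect of the same sign. Ch25h (chr19:34473778-34475164), the enzyme that makes an oxysterol, was at 1.07, 0.658 and 0 CPM in unstimulated and 39.7, 40.4 and 38.4 CPM in IL-4 libraries at 1 h. At 18 h Ch25h stood at 3.06, 2.53 and 1.24 CPM without and 3.77, 5.86 and 5.38 CPM with IL-4. The IL-4 libraries were above the unstimulated ones at both times, with a narrow gap at 18 h, and the effect went from 5.92 ± 0.28 to 1.15 ± 0.31, a change of -4.77 ± 0.54 (adjusted p = 1.2e-06). The monocyte attractant Ccl7 stood at 399.7, 422 and 448 CPM with IL-4 at 1 h and 146, 203 and 157 CPM at 18 h, while the unstimulated libraries held 17.9, 24.5 and 22.1 CPM at 1 h and 13.8, 19.4 and 14.2 CPM at 18 h. Its effect was 4.30 ± 0.13 and then 3.41 ± 0.14, and that of the attractant Ccl4 was 2.14 ± 0.12 and 0.82 ± 0.13.

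Rnf19b, a ubiquitin ligase, and Ripk2, the kinase of NOD receptors, kept effects of 2.08 ± 0.07 and 1.61 ± 0.10 at 18 h after 2.84 ± 0.07 and 2.69 ± 0.09 at 1 h. Among faded genes that IL-4 lowered, Pdgfb, a growth factor chain, was 305, 293 and 303 CPM without and 61.7, 63.4 and 45.8 CPM with IL-4 at 1 h. At 18 h Pdgfb stood between 198 and 212 CPM without and 153, 166 and 161 CPM with IL-4, and the change was 2.05 ± 0.12 (adjusted p = 2.5e-10). Every IL-4 library was below every unstimulated one at both times. Fos, a subunit of AP-1, went from -1.81 ± 0.11 to -0.35 ± 0.10, the Notch ligand Jag1 from -1.72 ± 0.11 to -1.09 ± 0.12, and Zfp36l2, a relative of Zfp36l1, from -1.64 ± 0.08 to -0.26 ± 0.07. Dusp1, a phosphatase of stress kinases, went from -1.18 ± 0.08 to -0.44 ± 0.09, while unstimulated libraries fell by 1.15 with time.

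Among sustained genes, Hbegf, an EGF receptor ligand, was at 7.04, 8.39 and 11.1 CPM without and 108, 109 and 123 CPM with IL-4 at 1 h. At 18 h Hbegf stood at 2.49, 2.53 and 2.66 CPM without and 43.0, 46.5 and 45.8 CPM with IL-4. All IL-4 libraries were above all unstimulated ones at each time. Its level fell in both arms, by 1.75 in unstimulated and 1.33 in IL-4 libraries, and the effects were 3.71 ± 0.12 and 4.13 ± 0.16. Plekhf1, an endosomal adaptor whose promoter is shown above, had effects of 3.79 ± 0.15 and 3.48 ± 0.16, with a change of -0.30 ± 0.28 (adjusted p = 0.49) and an interval from -0.89 to 0.28. Cdh1, E-cadherin, a marker of IL-4 macrophages, had 4.40 ± 0.32 and 5.74 ± 0.29, but the interval of its change, from -0.16 to 2.84, is wide. Pdcd1lg2, which encodes the checkpoint ligand PD-L2, held 2 counts over 3 unstimulated libraries at each time against 49 counts with IL-4 at 1 h and 295 at 18 h. These are ratios of 23.9 (95% counting interval 6.28 to 203) and 124 (34.0 to 1029), and the intervals overlap.

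Among sustained lower genes, Il17ra, the interleukin 17 receptor chain, stood at 139, 119.6 and 124 CPM without and 42.9, 45.5 and 44.3 CPM with IL-4 at 1 h. At 18 h Il17ra stood at 66.0, 76.4 and 63.1 CPM without and 22.6, 26.0 and 28.3 CPM with IL-4. The IL-4 libraries were below the unstimulated ones at both times, and the change was 0.11 ± 0.14 (adjusted p = 0.63) with an interval from -0.17 to 0.39. Smad6, an inhibitor of BMP signals, had effects of -2.15 ± 0.26 and -1.63 ± 0.25, and Mylip, the ligase that degrades the LDL receptor, -1.27 ± 0.10 and -1.38 ± 0.10. Thbs1, thrombospondin 1, was lower too (-1.43 ± 0.29 and -1.58 ± 0.42), but its libraries ranged from 67.8 to 196 CPM in unstimulated cells at 1 h and overlapped those with IL-4.

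**Figure D4:**
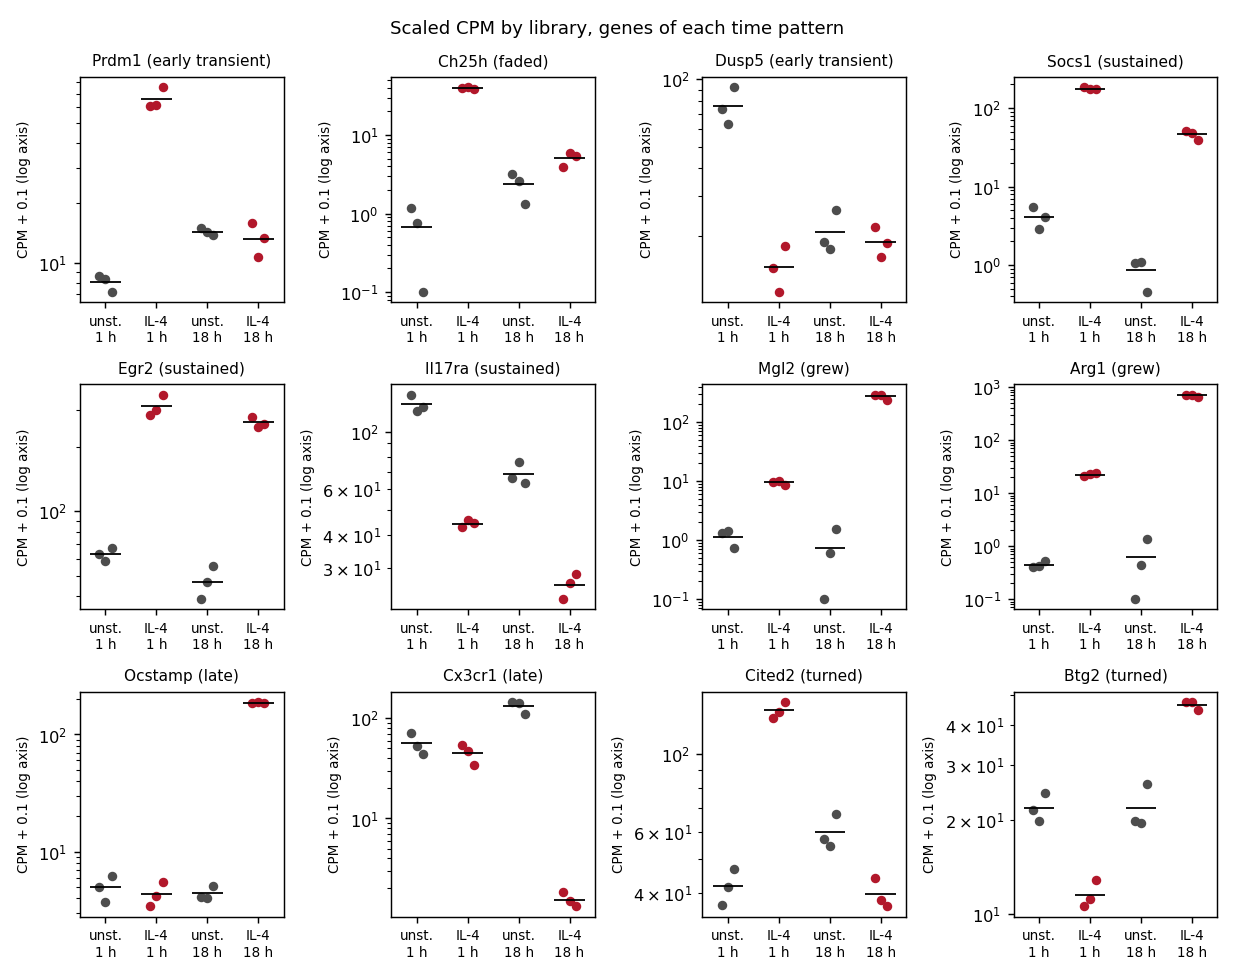
Each panel shows 1 gene, with scaled CPM plus 0.1 on a log axis (y) for 3 libraries in each of the 4 groups (x); grey points are unstimulated, red points IL-4, and bars mark the mean. Prdm1 is high in the IL-4 1 h libraries alone, Socs1 and Egr2 are high in both IL-4 groups, and Ocstamp is high in the IL-4 18 h libraries alone at 187, 189.9 and 185 CPM.

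Of 33 tested effectors and surface markers of IL-4 macrophages, 11 grew, 14 were late, 2 were sustained and 1 faded. The rest were in none of these classes. At 18 h 31 members rose and 1 fell, against 20.8% and 21.0% of all tested genes. The member that fell was Cd163, with an 18 h effect of -0.58 ± 0.20 (adjusted p = 0.025). Its change of the response was not called (-0.56 ± 0.26, adjusted p = 0.14). On this list 25 members were higher and 1 lower in the change of the response, against 10.8% and 12.2% of all tested genes. The median change was 1.94 log2 units, or 1.58 without the 5 members that had 3 counts or fewer in a group. The list was chosen with earlier results of these data known, so its share is a description and not a test. Arg1 (chr10:24915221-24927484), arginase 1, was at 0.306, 0.329 and 0.417 CPM without and 20.6, 22.5 and 24.1 CPM with IL-4 at 1 h. At 18 h Arg1 stood at 0, 0.338 and 1.24 CPM without and 724, 721 and 666 CPM with IL-4. All IL-4 libraries were above all unstimulated ones at both times, and those of 18 h were far above those of 1 h, a change within the IL-4 arm of 4.98 ± 0.11 (adjusted p = 6.8e-18). Its change of the response was 4.37 ± 0.96 (adjusted p = 0.002).

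Mgl2, a galactose lectin, rose from 1.22, 1.32 and 0.626 to 9.76, 10.1 and 8.53 CPM at 1 h and from 0, 0.507 and 1.42 to 289, 292 and 238 CPM at 18 h, a change of 5.56 ± 0.70 (adjusted p = 5.2e-06). The related lectin Clec10a went from 1.15 ± 0.15 to 2.71 ± 0.14, and Mrc1, the mannose receptor, from 0.51 ± 0.10 to 1.57 ± 0.10. Flt1, a VEGF receptor, went from 1.74 ± 0.28 to 5.21 ± 0.15, and the integrin subunit Itgb3 from 0.83 ± 0.13 to 3.56 ± 0.11. Slc7a2, a transporter that brings arginine into the cell, stood at 76.7 ± 16.4 CPM with IL-4 at 1 h and 362 ± 57.4 CPM at 18 h (mean ± SD, n = 3). Tmem26, a membrane protein whose promoter holds 2 motif matches, was 12.5 ± 2.28 and 58.0 ± 6.12 CPM at 1 h and 17.6 ± 0.553 and 323 ± 33.2 CPM at 18 h, a change of 1.96 ± 0.18 (adjusted p = 7.2e-08). Il4i1, an amino acid oxidase, grew from 1.18 ± 0.21 to 4.45 ± 0.14.

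Among decreases that grew, C5ar1, the C5a receptor, was at 552, 558 and 592 CPM without and 309.5, 314 and 351 CPM with IL-4 at 1 h. At 18 h C5ar1 stood at 499, 488 and 467 CPM without and 134, 116 and 113 CPM with IL-4. The groups were apart at both times, and the change was -1.20 ± 0.10 (adjusted p = 2.3e-08). Tlr2, a receptor for bacterial lipoproteins, went from -0.52 ± 0.12 to -2.15 ± 0.14, S1pr1, a receptor for a sphingosine lipid, from -0.37 ± 0.10 to -2.17 ± 0.11, and the laminin-binding integrin subunit Itga6 from -0.34 ± 0.09 to -1.85 ± 0.09.

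Late genes that rose were not called at 1 h. Ocstamp (chr2:165393760-165400405), a membrane protein needed for the fusion of osteoclasts and giant cells, was at 4.89, 3.62 and 6.05 CPM without and 3.30, 4.08 and 5.38 CPM with IL-4 at 1 h. At 18 h Ocstamp stood at 4.02, 3.89 and 4.96 CPM without and 187, 189.9 and 185 CPM with IL-4. The groups overlapped at 1 h and were far apart at 18 h, with a change of 5.64 ± 0.28 (adjusted p = 3.0e-11). Itgax, the integrin CD11c, was at 286, 286 and 317 CPM with IL-4 at 1 h, overlapping the 271, 291 and 254 CPM without, and at 1743, 1684 and 1745 CPM at 18 h over 207, 264 and 231 CPM without. Fn1, fibronectin, went from -0.48 ± 0.33 at 1 h to 4.32 ± 0.21 at 18 h, the chitinase-like gene Chil3 from 0.47 ± 0.14 to 4.27 ± 0.13, and the eosinophil-associated ribonuclease Ear2 from -0.15 ± 0.31 to 3.92 ± 0.21. Chil3 narrowly missed the threshold at 1 h (adjusted p = 0.052), with 48.8 to 54.8 CPM in IL-4 libraries above 35.5 to 39.2 CPM in unstimulated ones. Ccl22, a T cell attractant, was 2.49, 2.70 and 2.30 CPM without and 32.4, 27.4 and 23.8 CPM with IL-4 at 18 h. Ptgs1, cyclooxygenase 1, had an 18 h effect of 3.01 ± 0.16 and Atp6v0d2, a proton pump subunit of fusing cells, 1.30 ± 0.08. Osteoclast markers summed to 112 to 124 CPM in the IL-4 18 h libraries against 76.3 to 96.4 CPM in the other groups, with 2 of 4 tested higher, 1 lower and Calcr at 0; their part in these results was not tested.

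Several marker genes were at or near 0 counts in 1 or more groups and are given as counts. Retnla, a secreted resistin-like protein that is a standard marker of IL-4 macrophages, had 0 counts in the unstimulated libraries at both times, 6 counts over the 3 IL-4 libraries at 1 h and 4678 at 18 h, where its level was 300.4, 232 and 164 CPM. At 18 h it was at least 1311-fold higher with IL-4, against 3 counts over the unstimulated group, and at 1 h its effect was not called. Rnase2a, a ribonuclease gene of the eosinophil family, had 0 counts in the other 3 groups and 1061 with IL-4 at 18 h, at least 297-fold higher. The edgeR test of the change gave an adjusted p of 1 for both genes, and DESeq2 gave adjusted p = 2.9e-06 and 4.3e-06 and limma-voom 3.8e-04 and 3.6e-06. In edgeR they count with the unresolved late genes. Chil4, a chitinase-like gene, had 3, 2, 0 and 60 counts in unstimulated 1 h, IL-4 1 h, unstimulated 18 h and IL-4 18 h libraries, and Il31ra, a cytokine receptor chain, 2, 6, 1 and 297. In all, 10 tested genes had a group with no counts, and the change was called for 2 of them, Chil4 and Abca6; the latter, named after its values were seen, had 44, 42, 10 and 0 counts in the same order of groups. Intervals and lower bounds cover counting error only.

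Among late decreases was Cx3cr1 (chr9:119901616-120069879), the receptor for fractalkine on monocytes and macrophages. It was at 71.4, 53.2 and 44.2 CPM without and 53.9, 46.8 and 33.9 CPM with IL-4 at 1 h. At 18 h Cx3cr1 stood at 146, 143 and 111 CPM without and 1.73, 1.40 and 1.22 CPM with IL-4. The groups overlapped at 1 h; at 18 h the arms had moved apart, with a rise of 1.23 ± 0.15 in unstimulated libraries and a change of -4.94 ± 0.29 in IL-4 libraries. The change of the response was -6.18 ± 0.32 (adjusted p = 4.5e-11). Cd14, the LPS co-receptor, stood at 409, 372 and 456 CPM without and 381, 327 and 402 CPM with IL-4 at 1 h, overlapping, and 301, 284 and 342 CPM without and 41.8, 40.1 and 37.7 CPM with IL-4 at 18 h, apart. Notch4 (-3.18 ± 0.22), the immunoglobulin receptor Fcrl1 (-3.39 ± 0.28), the costimulatory ligand Icosl (-3.50 ± 0.29) and the kinase Dmpk (-3.36 ± 0.19) fell at 18 h as well, with adjusted p of the change from 7.2e-08 to 7.0e-06. The chemokine Cxcl16 and Gas6, a bridge between dying cells and their receptors, had 18 h effects of -1.83 ± 0.10 and -1.59 ± 0.09. The strand setting of the counting is not given in the sources used here, and Ch25h, Cish, Cx3cr1, Bhlhe40, Il4i1, Slc7a2, Pdcd1lg2, Ciita, Cxcl16, Gas6, Irf7, Ctsc and Junb are among the named genes that overlap an annotated gene on the opposite strand, whose reads may be included.

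Genes that turned had opposite effects at the 2 times, 42 of them higher and 74 lower at 1 h. Cited2 (chr10:17723218-17725674), a co-regulator that binds histone acetyltransferases, was at 37.0, 41.6 and 47.0 CPM without and 127, 132 and 141 CPM with IL-4 at 1 h. At 18 h Cited2 stood at 57.2, 54.6 and 67.3 CPM without and 44.3, 38.3 and 36.6 CPM with IL-4. IL-4 libraries were above the unstimulated ones at 1 h and below them at 18 h, with a change of -2.26 ± 0.14 (adjusted p = 5.1e-10). The cytokine Il10 turned in the same direction, from 0.62 ± 0.17 to -1.39 ± 0.32, as did the cysteine protease Ctsc, from 0.60 ± 0.07 to -1.23 ± 0.07, Filip1l, from 1.49 ± 0.10 to -0.86 ± 0.13, and the inhibitory receptor Cd300lf, from 0.94 ± 0.21 to -1.88 ± 0.24. Irf7, a factor of the interferon response, was 0.78 ± 0.18 at 1 h and -1.54 ± 0.22 at 18 h.

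Btg2, an antiproliferative gene, turned upward: 21.4, 19.7 and 24.2 CPM without and 10.5, 11.1 and 12.8 CPM with IL-4 at 1 h. At 18 h Btg2 stood at 19.7, 19.4 and 25.9 CPM without and 47.4, 47.4 and 44.6 CPM with IL-4. The groups were apart at both times in opposite order, and the change was 2.03 ± 0.18 (adjusted p = 3.9e-08). Junb, an AP-1 subunit, was at 303, 299 and 333 CPM without and 184, 159 and 187 CPM with IL-4 at 1 h and 120.3, 125 and 141 CPM without and 211, 186 and 203 CPM with IL-4 at 18 h. Unstimulated libraries fell by 1.28 and the change in the IL-4 libraries was not called (0.18 ± 0.08, adjusted p = 0.076). Id2, an inhibitor of helix-loop-helix factors, went from lower to higher as well, -0.63 ± 0.07 and then 0.51 ± 0.07, and unstimulated libraries fell by 0.98. Dusp2, a phosphatase of MAP kinases, went from -0.82 ± 0.17 to 1.26 ± 0.18, Hmox1, heme oxygenase 1, from -0.30 ± 0.07 to 0.47 ± 0.07, and the glycosyltransferase Galnt9 from -0.74 ± 0.18 to 1.51 ± 0.14. For 52 of the 74 genes that turned upward, the unstimulated libraries fell between 1 h and 18 h. This count uses the same libraries that defined the class and only describes it.

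Gene lists named for pathways, read against 10.8% of tested genes higher and 12.2% lower, differed in how many members changed their response. For MHC class II presentation 8 of 11 tested members were higher and none lower (median change 1.43), and 1 rose at 1 h. Cd74, the invariant chain, was 482, 570.4 and 531 CPM without and 1455, 1589 and 1249 CPM with IL-4 at 18 h, H2-Ab1, a class II chain, had a change of 1.80 ± 0.11 (adjusted p = 4.5e-10), and Ciita, the master regulator of the class, 2.07 ± 0.26 (adjusted p = 4.4e-06). The IL-4 libraries of these 3 genes were above the unstimulated ones at 18 h without overlap. Both arms of Cd74, H2-Ab1 and Ciita moved with time. The log2 change from 1 h to 18 h was 1.03, 1.17 and 1.11 in IL-4 libraries and -0.40, -0.64 and -0.96 in unstimulated ones. Dendritic cell markers summed to 6.60 to 8.01 CPM in the IL-4 18 h libraries and 2.04 to 5.81 CPM in the others. Of 6 listed, only Ccr7 passed the count filter, and it was higher in the change of the response (2.46 ± 0.67, adjusted p = 0.011). The part of dendritic cells in these results was not tested. Of serine, one-carbon and amino acid stress genes 11 of 17 were higher and 1 lower (median 0.64), among them Phgdh (1.31 ± 0.16) and Psat1 (1.18 ± 0.14) of serine synthesis and Asns (0.89 ± 0.13), asparagine synthetase. Of the TCA cycle list 14 of 22 were higher and 2 lower (median 0.30), with Mdh2 at 0.75 ± 0.11 and Sdhb at 0.68 ± 0.10; with scaling by library size alone 8 were higher and 2 lower, and without both replicates 3 of 18 h 9 and 1. For MYC partners and ribosome biogenesis 11 of 24 were higher and 1 lower, and 7 and 1 both with library size alone and without unstimulated 1 h replicate 3. None of the serine or TCA members was called at 1 h.

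All 24 tested genes of G2 and mitosis were lower in the change of the response (median -0.91), and none was called at 1 h. Of all tested genes 12.2% were lower and 10.8% higher in the change. Kif23, a kinesin of cell division, was at 94.8, 89.7 and 74.3 CPM without and 92.4, 98.5 and 75.3 CPM with IL-4 at 1 h, overlapping, and 107, 100.4 and 86.3 CPM without and 42.4, 40.5 and 38.4 CPM with IL-4 at 18 h, apart. Foxm1, the factor that drives mitotic genes, and Cenpe, a kinetochore motor, had changes of -1.08 ± 0.19 (adjusted p = 3.0e-04) and -1.11 ± 0.19 (adjusted p = 1.6e-04). In S phase genes 13 of 25 were lower and none higher (median -0.45), with Rrm2, a ribonucleotide reductase subunit, at -0.72 ± 0.16. Of 30 type I interferon response genes 23 were lower and none higher (median -0.98), while 2 rose and none fell at 1 h. Ifit3, an antiviral gene, stood at 17.2, 19.4 and 21.1 CPM without and 4.24, 2.42 and 2.60 CPM with IL-4 at 18 h, and Oas3, an RNA sensor, had a change of -1.71 ± 0.21 (adjusted p = 4.5e-06). The IL-4 libraries of these genes were below all unstimulated ones at 18 h. Without IL-4 18 h replicate 2 the lower counts were 24 for mitosis, 15 for S phase and 20 for interferon genes, and with library size alone 24, 16 and 24. The S phase count was 8 without replicate 1 or replicate 3 of unstimulated 1 h, replicate 2 of unstimulated 18 h or replicate 1 of IL-4 18 h, and 7 without replicate 2 of IL-4 1 h or replicate 1 of unstimulated 18 h.

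Immediate early genes, which growth and stress signals switch on within the hour, moved in both directions. Of 23 tested, 6 rose and 10 fell at 1 h, where 3.48% and 3.38% of all tested genes did so. At 18 h 12 rose and 3 fell, against 20.8% and 21.0%. The change of the response was higher for 11 and lower for 1 (median 0.64), against 10.8% and 12.2% of all tested genes. Beside those shares, the 13 MAPK feedback genes divided into 4 higher and 4 lower, and the 10 ID and SMAD target genes into 4 and 2. At 1 h, 7 of the MAPK feedback genes and 6 of the ID and SMAD targets were lowered by IL-4. In Dusp1, Dusp5, Junb and Id2, described above, the unstimulated level at 1 h was higher than at 18 h, while that of Fos was not (a change of 0.04 ± 0.10, adjusted p = 0.83).

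**Figure D5:**
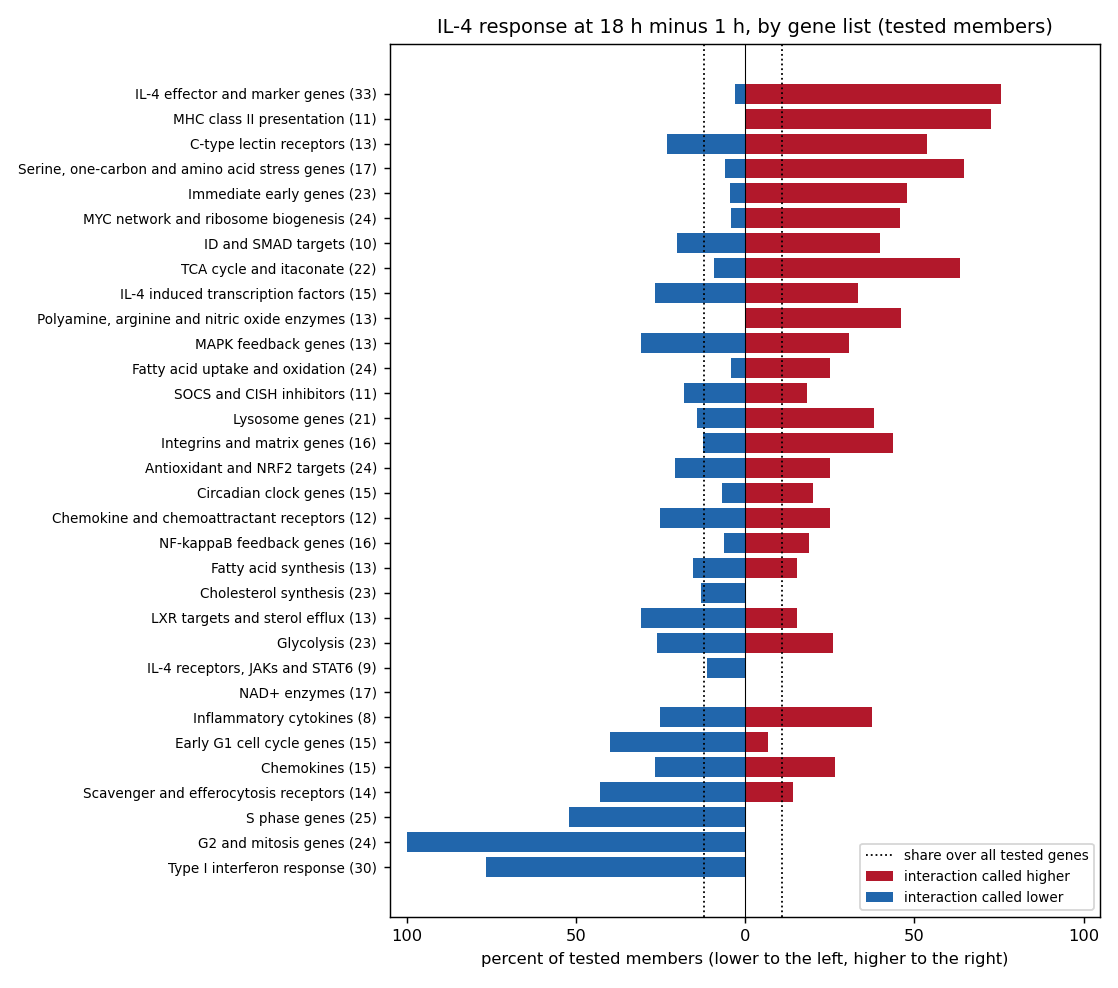
Bars give the percent of tested members of each list (number in brackets) whose response was called higher at 18 h than at 1 h (red, to the right) or lower (blue, to the left), with lists ordered by their median change; dotted lines mark the 10.8% and 12.2% of all tested genes. IL-4 effector genes stand at the top with 25 higher of 33, and type I interferon genes at the bottom with 23 lower of 30.

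The median span of a gene on the chromosome was 20.9 kb over all tested genes, 31.3 kb for late lower and 32.1 kb for sustained lower genes, 20.6 kb for late higher and 12.9 kb for genes that turned upward. Exonic length had a median of 4.22 kb over all tested genes, 3.80 kb for late higher and 5.18 kb for late lower genes. These are descriptions without a test.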

How the data were processed

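RNA-seq counts per Ensembl gene were deposited by the authors as 1 table for each library. STAR, featureCounts, DESeq2, deepTools and build GRCm38 are named in the submitters' processing notes, without versions or roles; the annotation release and strand setting are not given in the sources used here. The deposited counts of 12 libraries were tested with edgeR 4.0.16 in R 4.3.3 (quasi-likelihood test, TMM scaling, filterByExpr with a minimum count of 10, 1 mean for each of 4 groups), with Benjamini-Hochberg adjustment over 12292 genes; 31337 were not tested. Levels are TMM-scaled CPM, and the floor of 3 counts over a group is 0.147 to 0.184 CPM. The common biological coefficient of variation was 0.0692. Symbols and positions came from GENCODE vM21 for 42548 of 43629 identifiers. The test was tried on simulated data before use. Of 150 genes it called there for a change of the response, 12 were false calls. It called 24 of 67 genes changed 1.5-fold, 52 of 67 changed 2-fold and 62 of 66 changed 4-fold. Alternatives were DESeq2 1.42.0, limma-voom (limma 3.58.1), other scalings, filters and thresholds, a replicate block, all 24 libraries in 1 fit, and each library left out. Named genes were those with the largest changes in each time pattern at 5 CPM or more, up to 12 each way for the interaction and 6 for each pattern and direction, and members of the lists, without predicted genes. The members and lists were chosen with earlier results of these data known. Another alternative, the list counts under every setting, was chosen after seeing the data. The text names only part of the genes that this rule selects, and a few items are not reported here. Replicate numbers are from the labels; deviations from the group means correlated at 0.13, 0.26 and 0.18 for the 3 same-numbered pairs of the 1 h groups, but not over 0.1 for every pair of the other groups.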

Additional observations from a re-analysis of the deposited data

Results flagged for a closer look

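The IL-4 effect differed between the 2 times by a test of the difference itself for 2827 genes, and for 116 of them it was called at both times with opposite signs. Among the genes with opposite signs, the change of the log2 effect from 1 h to 18 h was -2.26 for Cited2, -2.83 for Cd300lf, -2.36 for Filip1l, -2.32 for Irf7, -2.00 for Il10 and -1.83 for Ctsc. It was 2.25 for Galnt9, 2.08 for Dusp2, 2.03 for Btg2, 1.45 for Junb, 1.14 for Id2 and 0.78 for Hmox1.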

How the results depend on the processing

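Of 2200 values of the named genes under alternative settings, 2176 kept their direction and side of the threshold, 6 lost the call, 18 gained it and none reversed; 102 of 110 genes changed in no setting. At an adjusted p below 0.01 the change of the response was called for 788 genes higher and 881 lower, the unstimulated time change for 730, early transient higher for 36, sustained lower for 77 and late for 576 higher and 764 lower. A separate setting kept the adjusted p threshold of the main calls and asked for a size of at least 2-fold as well. It left 329 genes higher and 443 lower for the response, 219 at 1 h and 927 at 18 h. It left 879 for IL-4 over time and 98 for unstimulated over time. For the time patterns the 2-fold size was that of the IL-4 effect and not of the change. It was read at 1 h for early transient, at 18 h for late and at both times for sustained genes. These counts were 15 and 25 for early transient, 46 and 19 for sustained and 209 and 365 for late genes, higher and lower. Fewer genes can pass a stricter threshold. DESeq2 gave 36 early transient higher genes; the cause was not tested.

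With 1 library left out, the counts ranged from 1108 to 1474 for a higher and 1124 to 1479 for a lower response, 649 to 987 at 1 h, 4408 to 5186 at 18 h, 4373 to 5374 for IL-4 over time and 828 to 1971 for unstimulated over time. They ranged from 36 to 62 and 77 to 126 for early transient, 135 to 187 and 88 to 136 for sustained, and 843 to 1136 and 984 to 1249 for late genes, higher and lower. With a replicate block the response was called for 1524 genes higher and 1717 lower, 2824 of them among the 2827. Of 18 pairs of libraries with the same number 9 had a correlation of deviations over 0.1 (-0.11 to 0.26), so over the 4 groups the numbers are read as names. That 9 of 12 libraries correlated best with their own number is a hint from the data, not the design. The block gave 1015 calls at 1 h and 2139 for unstimulated over time. The total of 4902540 to 8122945 counts limits calls of small changes in low genes.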

Other observations

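Over all tested genes 10.8% had a higher and 12.2% a lower response at 18 h than at 1 h. C-type lectin receptors divided: of 13 tested, 7 were higher and 3 lower (median change 0.70). Clec12a, an inhibitory receptor, and Clec4d, a receptor for fungal glycans, were among those lower, with changes of -1.14 ± 0.09 (adjusted p = 1.2e-08) and -1.31 ± 0.11 (adjusted p = 2.3e-08). Of 14 scavenger and efferocytosis receptors 2 were higher and 6 lower (median -0.44), and of 15 chemokines 4 and 4. Of 24 genes of fatty acid uptake and oxidation 6 were higher and 1 lower, of 13 genes of polyamine, arginine and nitric oxide metabolism 6 and 0, and of 23 glycolysis genes 6 and 6. Of 23 cholesterol synthesis genes 3 were lower, near the share of all genes, and none higher, and of 15 early G1 genes 6 were lower and 1 higher. For NAD+ enzymes edgeR called 0 of 17, and over the alternative settings no more than 1 was called.

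Low marker genes that did not pass the count filter had, in unstimulated 1 h, IL-4 1 h, unstimulated 18 h and IL-4 18 h libraries, 0, 2, 0 and 39 counts for Ccl17 and 4, 23, 0 and 36 counts for Ccl24, both T cell or eosinophil attractants.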
